A study of Mus musculus with 18 samples.

Results

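The nuclear genes for the subunits of oxidative phosphorylation were followed across 4 groups of sorted mouse cells. Members were the gene symbols of complex I (Nduf with a, b, c, s or v and a number), complex II (Sdha to Sdhd), complex III (Uqcr), complex IV (Cox4 to Cox8) and ATP synthase, also called complex V (Atp5), with Ndufa4l2 and the assembly factors left out. The rule found 83 genes among the 23238 symbols of the count tables, with 36 in complex I, 4 in complex II, 8 in complex III, 18 in complex IV and 17 in complex V. The rule sorts by name, so Ndufa4, which is now assigned to complex IV, stayed with complex I, and Atp5s and Atp5sl, which are relatives of ATP synthase factors and not subunits, stayed with complex V. Ndufab1, an acyl carrier protein of complex I whose name the rule does not match, was not a member. None of the subunit genes carried by the mitochondrial genome had a row in the tables, so the members cover the nuclear share of the system only.

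Oxidative phosphorylation takes place in the mitochondrial inner membrane. Complexes I and II pass electrons from NADH and succinate to ubiquinone, complex III passes them on to cytochrome c, and complex IV hands them to oxygen. Complexes I, III and IV pump protons across the membrane, and ATP synthase lets the protons flow back to make ATP. Most subunits are encoded in the nucleus, the core proton-pumping subunits of complexes I, III and IV and parts of ATP synthase are encoded in mitochondrial DNA, and several subunits of complex IV have isoforms restricted to muscle, testis or lung. Endothelial cells are known for making much of their ATP by glycolysis, and lymphatic endothelial cells also use fatty acid oxidation.

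RNA came from the small intestine of adult C57BL/6J mice. Intestinal stromal cells positive for PDGFRβ (IntSCs) and intestinal lymphatic endothelial cells (LECs) were sorted by flow cytometry. The study's methods name no step that separates lacteals, the lymphatic vessels inside the villi, from other intestinal lymphatic vessels. WT mice had the genotype PDGFRb+-CreERT2-Tomato+ (6 IntSC and 4 LEC libraries). The other mice carried in addition the floxed alleles Lats1f/f and Lats2 f/f (labelled LATS1/2 KO, 5 IntSC and 3 LEC libraries). All 4 groups therefore carried the Pdgfrb-driven CreERT2, a Cre recombinase that tamoxifen activates, with the tdTomato reporter, and per the study's methods the mice received tamoxifen by injection. The deletion was directed at PDGFRβ+ cells, so the LECs of the KO mice were neighbours of the targeted cells. Cells bearing CD45 or CD326 were depleted with beads before sorting, and CD31+ cells also for IntSCs.

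Reads mark the 3′ end of transcripts. Libraries held 5361250 to 10549233 counts, and libraries of 1 group correlated with a Spearman rho of 0.809 to 0.938 across genes. Prox1, the defining transcription factor of lymphatic endothelium, was at 33.3 to 117 CPM (read counts scaled to a common library size with TMM factors) in the 7 LEC libraries and at 0 to 0.170 CPM in the 11 IntSC libraries. The summed level of 8 stromal markers was 7354 to 16066 CPM in IntSCs and 310 to 2038 CPM in LECs. Of 7 LEC markers 6 were called higher in LECs in each genotype, and 1 was called lower in KO LECs. The summed level of 6 blood endothelial markers was 1317 to 3106 CPM in IntSCs and 580 to 1022 CPM in LECs. Of these, Emcn was called higher in WT LECs (log2 fold change 5.90 ± 0.296), whereas Cd34 (-3.44 ± 0.413) and Nrp1 (-3.31 ± 0.697) were called lower. The targeted genes did not fall in the libraries labelled KO. Lats2 was at 78.4 to 133 CPM in KO IntSCs and 40.8 to 112 CPM in WT IntSCs, Lats1 was at 12.5 to 21.6 CPM and 0 to 29.9 CPM, and neither passed the test. A 3′ count can survive the loss of internal exons, so these reads do not check the genotype, and KO below means the libraries labelled so. The 45S ribosomal RNA precursor Rn45s took 7.02% to 12.4% of counts in LECs and 11.6% to 24.4% in IntSCs. The study's figure legends count these groups in mice, in numbers that match the libraries here, gathered over several independent experiments. No label ties a library to a mouse or an experiment, so a batch could not be fitted, and p-values measure the spread between these libraries.

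The promoters of 5 members on which the results below turn are shown first, as the genomic context of the genes that differed between the cell types. Ndufc2 had the largest rise among the well-counted members, Cox6a1, Cox6b1 and Atp5b rose in both genotypes, and Cox6b2 moved the other way from Cox6b1. The lines give the 250 bases before the annotated start in RefSeq (GRCm38.p6), 5′ to 3′ on the strand of the gene, all upstream of the first exon. Capitals mark matches on either strand to TGCGCA (a core of the sites bound by NRF1, a factor known for nuclear respiratory genes), CCGGAA (the core of sites for ETS factors, to which GABPA belongs), CCAAT (the box bound by NF-Y) and ATGGCG (a core of YY1 sites), none of which contains another. The windows lie upstream of Ndufc2 at chr7:97399753-97400002 on the plus strand, Cox6a1 at chr5:115348959-115349208 on the minus strand, Cox6b1 at chr7:30626115-30626364 on the minus strand, Cox6b2 at chr7:4753095-4753344 on the minus strand and Atp5b at chr10:128083057-128083306 on the plus strand.
Ndufc2: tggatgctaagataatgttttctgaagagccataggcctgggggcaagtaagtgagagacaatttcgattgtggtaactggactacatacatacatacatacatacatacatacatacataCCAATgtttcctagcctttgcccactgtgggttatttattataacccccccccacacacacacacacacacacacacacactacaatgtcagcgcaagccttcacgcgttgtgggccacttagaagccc
Cox6a1: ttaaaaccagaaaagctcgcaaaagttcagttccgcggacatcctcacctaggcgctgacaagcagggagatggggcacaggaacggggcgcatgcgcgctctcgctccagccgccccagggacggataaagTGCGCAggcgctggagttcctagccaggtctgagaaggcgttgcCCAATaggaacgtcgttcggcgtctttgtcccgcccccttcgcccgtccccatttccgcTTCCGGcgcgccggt
Cox6b1: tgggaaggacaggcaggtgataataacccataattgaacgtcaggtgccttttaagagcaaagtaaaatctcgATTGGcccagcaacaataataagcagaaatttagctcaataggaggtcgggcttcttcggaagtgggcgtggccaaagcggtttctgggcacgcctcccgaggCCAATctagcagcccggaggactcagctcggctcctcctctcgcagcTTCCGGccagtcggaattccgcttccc
Cox6b2: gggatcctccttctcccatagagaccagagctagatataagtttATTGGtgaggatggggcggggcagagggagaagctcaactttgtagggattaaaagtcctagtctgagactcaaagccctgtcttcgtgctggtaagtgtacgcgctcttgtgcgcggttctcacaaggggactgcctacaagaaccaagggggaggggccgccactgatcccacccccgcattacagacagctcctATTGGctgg
Atp5b: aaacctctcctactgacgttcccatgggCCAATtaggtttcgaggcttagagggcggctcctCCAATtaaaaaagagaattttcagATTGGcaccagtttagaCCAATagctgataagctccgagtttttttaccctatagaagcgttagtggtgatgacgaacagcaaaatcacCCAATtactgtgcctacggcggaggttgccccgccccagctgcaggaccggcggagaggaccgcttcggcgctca

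In the Cox6a1 window the NRF1 core occurred at -118 to -113, counted from the annotated start, with a CCAAT box at -74 to -70 and an ETS core at -15 to -10. The Cox6b1 window held an ETS core at -27 to -22 and CCAAT boxes at -177 to -173 and -74 to -70. The window of Atp5b held 5 CCAAT boxes, from -222 to -71. Of the printed windows of Ndufc2 and Cox6b2, the former held 1 CCAAT box and the latter 2, and no other of these motifs. Further matches lay across or past the start, outside the printed part. They were an ETS core in Ndufc2 (-2 to 4) and a YY1 core in Cox6a1 (12 to 17) and Atp5b (17 to 22). Cox6b1 (8 to 12) and Cox6b2 (18 to 22) each had a further CCAAT box there. RefSeq windows of 300 bases (250 before and 50 after the start) were found for 69 of the 83 members, 75 windows in all. The NRF1 core was in 19 of them (25.3%, against 7.76% of the 32851 windows of all genes), the ETS core in 27 (36.0% against 14.9%), the YY1 core in 22 (29.3% against 8.93%) and the CCAAT box in 32 (42.7% against 37.4%). A match describes letters in a window and is not a measured binding site.

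The first question was whether LECs and IntSCs of WT mice differ in these genes. The summed level of the 83 members was higher in WT LECs. In WT IntSCs the sum was 7444 CPM at the lowest, 9248 CPM at the median and 10580 CPM at the highest library, and in the 4 WT LEC libraries it was 16247, 11661, 16795 and 14806 CPM. The groups did not overlap, and the means of 14877 CPM ± 2302 (SD, n = 4) and 9120 CPM ± 1142 (SD, n = 6) gave a ratio of 1.63. The sum is a scaled share of each library's RNA, so more transcript per cell and less of other RNA cannot be told apart.

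The sum of each complex had a higher mean in WT LECs. Complex I was at a mean of 3196 CPM in WT IntSCs and 5176 CPM in WT LECs, complex IV at 2480 and 4106 CPM and complex V at 2212 and 3710 CPM, with all 4 LEC libraries above all 6 IntSC libraries in each. Complex II (303 and 457 CPM) and complex III (928 and 1428 CPM) overlapped between the groups, because in each 1 of the 4 LEC libraries lay within the IntSC range. These sums are descriptions and were not tested.

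**Figure D1:**
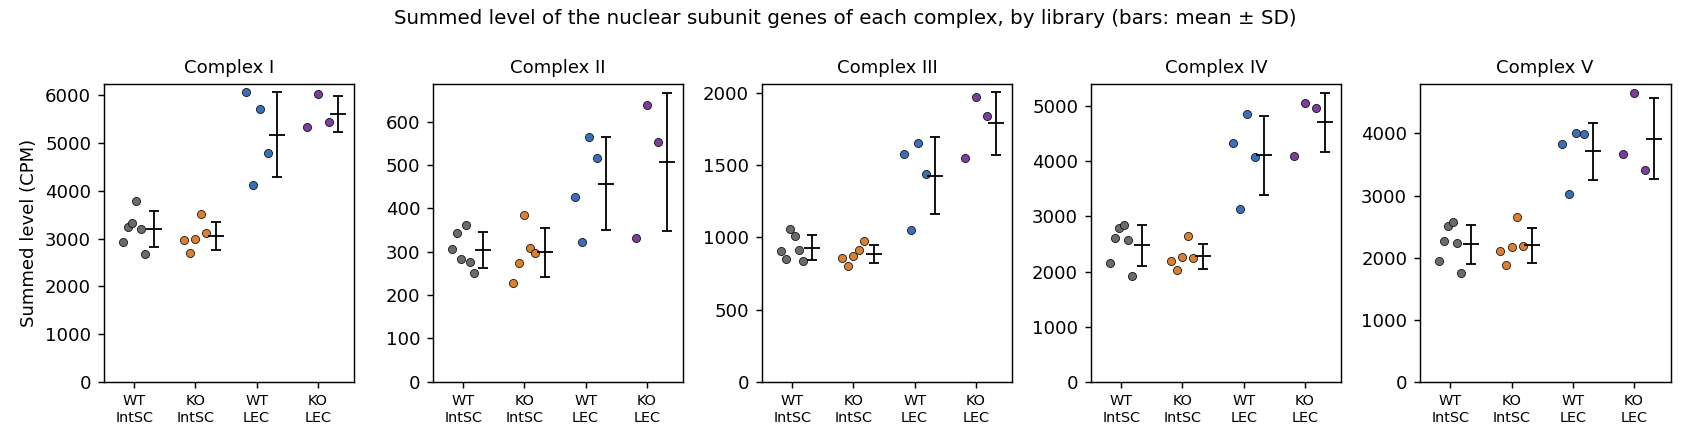
Summed CPM of the nuclear subunit genes of complexes I to V (1 panel each, y axis in CPM from 0) in each library of the 4 groups; points are libraries and bars the mean ± SD. In complexes I, IV and V all LEC libraries lie above all IntSC libraries of the same genotype, while KO and WT of the same cell type overlap in every panel.

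Gene by gene, edgeR's quasi-likelihood test with Benjamini-Hochberg adjustment over 12203 genes called 26 of the 79 members that passed the filter on low counts, against 22.6% of all genes called. By direction, 24 members were higher in LECs (10.3% of all genes were) and 2 were lower (12.3% of all genes were). Of the 79, 73 had a log2 fold change above 0, with a median of 0.69 against -0.04 for all genes tested. In 18 members every LEC library lay above every IntSC library, and in 1 every one lay below, against 9.76% and 11.4% of all genes. The number of calls fell to 16 without WT LEC replicate 1. It was lowest with the replicate number as a block, as given in the last section. Cox6a2, Cox7b2, Cox8b and Cox8c did not pass the filter in any comparison.

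In complex I, 8 of 36 members were called higher and none lower. The share called was 22.2%, near the 22.6% of all genes called in either direction, while 10.3% of all genes were called higher. Fold changes went from -0.33 (Ndufs4) to 2.47 (Ndufc2) over the complex. Ndufc2 (chr7:97400003-97407800), which encodes an accessory subunit of the membrane arm, led. It was at 41.4 CPM at the lowest, 63.0 at the median and 90.4 at the highest WT IntSC library, and at 374, 229, 530 and 295 CPM in the WT LEC libraries. All LEC libraries were more than 2 times as high as the highest IntSC library, and the log2 fold change was 2.47 ± 0.287 (SE; adjusted p = 1.26e-05, edgeR). Ndufb8, another membrane arm gene, was at 82.9, 151 and 174 CPM (lowest, median and highest WT IntSC library) and at 324, 237, 360 and 346 CPM in LECs, again without overlap (log2 fold change 1.14 ± 0.233). Ndufb4 had 1 IntSC library at 79.2 CPM where the others were at 22.1 to 40.7 CPM, and 138.9, 80.8, 126 and 101 CPM in LECs (1.45 ± 0.343). The other calls were Ndufb5, Ndufb6, Ndufb7, Ndufa8 and Ndufs7, named here after their values were seen, at 0.75 to 1.16.

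Complex II had 1 call of 4, a share of 25% that is near the 22.6% of all genes. Sdhc, a membrane anchor of succinate dehydrogenase, was at 33.7, 107 and 149.6 CPM (lowest, median and highest) in WT IntSCs and at 221, 132, 191 and 266 CPM in WT LECs. The ranges overlapped, and the change of 1.02 ± 0.347 (adjusted p = 0.046) lost its call when any of 7 of the 10 libraries was left out, with adjusted p of 0.0557 to 0.131. Sdha, which carries the catalytic flavin, stood at 134 CPM ± 33.9 in IntSCs and 151 CPM ± 40.9 in LECs (0.17 ± 0.258).

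In complex III, 2 of 8 members were called, both higher, and all 8 lay above 0. The share called of 25% was again near the 22.6% of all genes. Uqcrc2, a core protein, was at 16.8, 33.1 and 47.1 CPM in WT IntSCs and at 60.8, 48.5, 148 and 145 CPM in LECs (1.66 ± 0.401, adjusted p = 0.0073). The lowest LEC library stood barely above the highest IntSC library, and the 4 LEC libraries fell into a lower and a higher pair. Uqcrq was the other call (1.04). Uqcrfs1, the Rieske iron-sulfur protein that takes electrons from ubiquinol, was at 80.4 CPM ± 29.6 and 83.8 CPM ± 22.4 (0.06 ± 0.346).

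Complex IV held 5 members called higher and 2 called lower of 14 tested, and the directions differed between isoforms. The share called was 50%, against 22.6% of all genes. Widely expressed isoforms of subunits 4, 6A, 6B and 7A rose. Cox4i1, the common form of subunit 4, was at 83.6, 112 and 157 CPM in WT IntSCs and at 236, 183, 420 and 229.6 CPM in WT LECs (1.22 ± 0.262, adjusted p = 0.00325). Cox6b1 was at 175, 204 and 272 CPM against 576, 391.6, 603 and 572 CPM (1.35 ± 0.203, adjusted p = 0.00016), and Cox6a1 at 253, 303 and 382 CPM against 599, 428, 866 and 808 CPM (1.13 ± 0.218). Cox7a2 was at 138, 189 and 229 CPM against 510, 259, 488 and 368 CPM (1.11 ± 0.227), and Cox6c was the other call (0.69). In Cox4i1, Cox6b1, Cox6a1 and Cox7a2 no LEC library fell into the IntSC range, and replicate 2 was the lowest of the 4 LEC libraries each time.

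The 2 members called lower were isoforms of restricted expression. Cox4i2, the alternative form of subunit 4 known from lung and from the response to low oxygen, had reads in 5 of 6 WT IntSC libraries (0, 0.621, 1.82, 3.39, 3.58 and 4.18 CPM in order of size) and none in the 4 WT LEC libraries. With the limit that a count of 0 allows set at 3 counts over the group (0.0761 CPM), its level was at least 29.8-fold lower in LECs (adjusted p = 0.0288). At this depth the call was lost when any of the 4 LEC libraries was left out (adjusted p of 0.0538 to 0.0672). Cox6b2, a form of subunit 6B known from testis, was at 9.67, 17.6 and 30.1 CPM in WT IntSCs and at 0, 0.861, 0.0935 and 0.795 CPM in LECs, without overlap (-5.46 ± 1.18, adjusted p = 0.00339). Cox7a1 and Cox8b, forms known from heart and muscle, were low and uneven. Cox7a1 was at 0, 3.65 and 6.88 CPM (lowest, median and highest) in IntSCs and had reads in 1 LEC library (4.28 CPM), and Cox8b had reads in 3 of 6 WT IntSC libraries, up to 6.02 CPM, and in no LEC library. Cox6a2, Cox7b2 and Cox8c had no read in any of the 18 libraries.

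**Figure D2:**
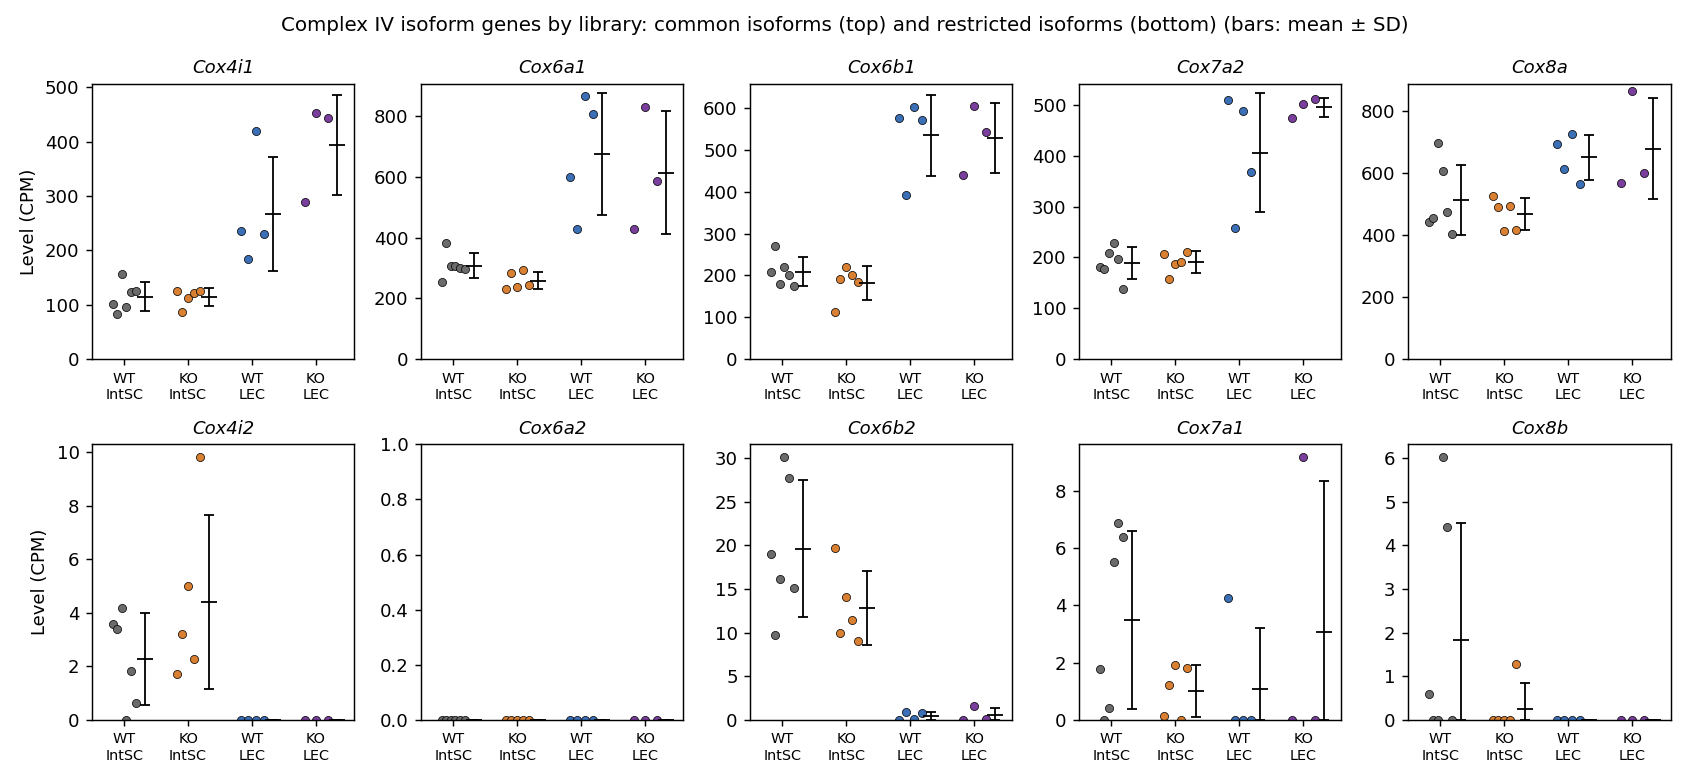
CPM of the common complex IV isoform genes (top row) and of isoforms restricted to certain tissues (bottom row) in each library, with the y axis of each panel from 0; bars are the mean ± SD, drawn no lower than 0. Cox6b1 lies at 391.6 to 606 CPM in LECs and at 113 to 272 CPM in IntSCs, while Cox6b2 lies at 0 to 1.53 CPM in LECs and at 9.02 to 30.1 CPM in IntSCs.

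Complex V had 8 of 17 members called, all higher, a share of 47.1% against 22.6% of all genes. Atp5b, the catalytic β subunit, was at 94.7, 108 and 117 CPM in WT IntSCs and at 278, 212, 236 and 384 CPM in WT LECs (1.36 ± 0.214, adjusted p = 0.000238). Atp5a1, the α subunit, was at 172, 256 and 357 CPM against 467, 408, 516 and 586 CPM (0.92 ± 0.213, adjusted p = 0.00564). These 2 genes of the F1 head were thus separated without overlap. Atp5c1, Atp5d and Atp5e, which encode further F1 subunits, overlapped between the groups, with Atp5d at a ratio of means of 0.934. The 3 genes Atp5g1, Atp5g2 and Atp5g3, which encode the same c-ring protein behind different import sequences, were all called higher, at 0.91, 1.10 and 0.77. The call of Atp5g1 was lost without WT IntSC replicate 1 or without WT LEC replicate 4 (adjusted p = 0.0559 and 0.0876). Atp5k, Atp5j2 and Atp5c1 were the remaining calls, at 0.79 to 0.97.

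The members with the highest mean CPM in complexes I and IV did not pass the test, and neither did that of complex III. Ndufa2 was at 363 CPM ± 33.7 in WT IntSCs and 391 CPM ± 104 in WT LECs (0.10 ± 0.208, with a 95% interval from -0.31 to 0.51), and Cox8a at 513 CPM ± 113 and 650 CPM ± 73.5 (0.34 ± 0.199, from -0.05 to 0.73). Uqcrh, the hinge protein of complex III, changed by 0.62 ± 0.223 (adjusted p = 0.0597). Within a complex the size of the difference therefore varied from gene to gene. Cox7a2l, an assembly factor of respiratory supercomplexes, was at 149 CPM ± 31.5 and 220 CPM ± 56.0 (0.56 ± 0.236, adjusted p = 0.112).

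Several other measures moved with the cell type. Members have short transcripts, with a median of 648 nucleotides for the 82 matched to GENCODE transcripts, and 64 of them are at most 1000 nucleotides long. Among other genes of at most 1000 nucleotides with a mean over 50 CPM (757 genes), the median log2 fold change was 0.39 and 29.5% were called higher and 11.2% lower, whereas the 52 members of that class had a median of 0.69, with 36.5% called higher and 0% lower. Other genes with transcripts over 4000 nucleotides had a median of -0.44. The share called higher was thus nearer to that of short, well-counted genes than to that of all genes, and the part of transcript length in the result was not tested. All 4 tested erythroid markers were called higher in WT LECs, with a summed level of 218 to 543 CPM in WT LECs, 3.91 to 60.4 CPM in WT IntSCs, 9.62 to 135 CPM in KO LECs and 5.59 to 67.6 CPM in KO IntSCs; the fifth, Alas2, was in no fit. Of 6 leukocyte markers 2 were tested, with Cd74, the invariant chain of antigen presentation, called higher (5.30 ± 0.992) and Cd68, a macrophage marker, called lower (-4.12 ± 1.15). The summed level of that list was 48.3 to 146 CPM in WT LECs and 15.0 to 39.1 CPM in WT IntSCs without overlap, nearly all of it from Cd74 in LECs, while the defining marker Ptprc was at 0 in 3 of 4 WT LEC libraries and Cd3e in all 4. Of 10 epithelial markers 2 were tested, with Apoa1, an apolipoprotein of enterocytes, called higher (3.66 ± 0.653). The summed epithelial level was 67.8 to 277 CPM in WT LECs and 0.509 to 112 CPM in WT IntSCs, so the groups overlapped, and Epcam was at 0 in 3 of 4 WT LEC libraries. The part of these 3 marker lists in the result was not tested. Without Rn45s, 25 members were called here and 35 in the KO contrast described next.

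The same contrast in the libraries labelled KO shares no library with the WT contrast. There the members' sum was 8341, 7680, 8667, 10036 and 8815 CPM in the KO IntSC libraries and 14992, 18371 and 16225 CPM in the KO LEC libraries. The groups did not overlap, with a ratio of means of 1.90. Over 12758 genes, 36 of 79 members were called against 25.9% of all genes, 33 higher (9.11% of all genes) and 3 lower (16.8% of all genes). Of the 79, 72 lay above 0, the median was 0.85 against -0.21 for all genes, and 37 members had all LEC libraries above all IntSC libraries, 3 all below (12.1% and 20.1% of all genes). Among the 52 short, well-counted members the median was 0.997 and 55.8% were called higher, against 0.35 and 31.4% of the 758 other genes of that class. The count of calls fell to 21 without KO IntSC replicate 1 and to 23 without KO IntSC replicate 2. Here too it was lowest with the replicate number as a block. In this contrast 0 of 4 erythroid markers were called, and the leukocyte and epithelial lists had 1 of 3 and 1 of 8 called, both lower, with summed levels that overlapped between the groups.

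By complex, 12 of 36 members of complex I, 2 of 4 of complex II, 5 of 8 of complex III, 7 of 14 of complex IV and 7 of 17 of complex V were called higher. Of all genes 9.11% were called higher and 25.9% in either direction, and complex I had 33.3% called. Ndufc2 again led, at 64.7, 49.4, 66.3, 56.8 and 65.1 CPM in KO IntSCs and at 578, 574 and 502 CPM in KO LECs (3.12 ± 0.193, adjusted p = 4.13e-06). Cox4i1 was at 125, 87.0, 112, 121 and 125 CPM against 288, 452 and 443 CPM (1.71 ± 0.219), and Cox7a2 at 208, 158, 187, 191 and 211 CPM against 475, 502 and 511 CPM (1.30 ± 0.177). Atp5b had a wide spread among LECs, at 118, 130, 138, 151 and 111.5 CPM in KO IntSCs and at 247, 523 and 282 CPM in KO LECs (1.36 ± 0.256). In these genes, as in the WT contrast, no library of one cell type fell into the range of the other.

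The 5 calls of complex III in the KO contrast were Uqcr10 (1.28 ± 0.223), Uqcr11 (1.20 ± 0.219), Uqcrc1, Uqcrc2 and Uqcrq, at 1.20 to 1.35. All 5 lay above 0 in the WT contrast too. Uqcr10, a small subunit, was at 180, 135, 134, 180 and 229 CPM in KO IntSCs and at 414, 485 and 416 CPM in KO LECs. In complex IV, Cox5a, which encodes a matrix-facing subunit, was at 41.9, 38.2, 51.3, 60.9 and 49.4 CPM against 200.01, 156 and 171 CPM (1.79 ± 0.248, adjusted p = 0.000554), with every LEC library more than 2 times as high as every IntSC library. In the WT contrast the same gene had changed by 0.63 ± 0.310 (adjusted p = 0.172). Atp5g2 and Atp5k were called at 1.59 ± 0.239 and 1.55 ± 0.285, and Sdhb, the iron-sulfur subunit of complex II, at 1.30 ± 0.274. Atp5a1 was at 261, 233, 486, 382 and 304 CPM against 441, 382 and 324 CPM, with overlap (0.13 ± 0.261, adjusted p = 0.793).

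The 3 members called lower in KO LECs were Cox4i2, Cox6b2 and Atp5s. Cox4i2 was at 1.70, 3.22, 4.997, 2.28 and 9.80 CPM in KO IntSCs and had no read in the 3 KO LEC libraries, at least 35.0-fold lower with 3 counts over the group as the limit (0.126 CPM; adjusted p = 0.0149). Over both genotypes no LEC library had a read of Cox4i2. Cox6b2 was at 19.7, 9.93, 14.0, 11.4 and 9.02 CPM in KO IntSCs and at 0, 1.53 and 0.130 CPM in KO LECs (-4.56 ± 1.51, adjusted p = 0.0482), and its call was lost without any 1 of the KO IntSC libraries or without KO LEC replicate 3 (adjusted p of 0.0654 to 0.106). Atp5s was at 9.79, 2.42, 2.62, 8.53 and 2.19 CPM in KO IntSCs and had no read in KO LECs, at least 40.7-fold lower (adjusted p = 0.014). With genes without a read set at their bound, the median over members stayed at 0.69 in the WT and 0.85 in the KO contrast. Cox7a1 had reads in 1 of 3 KO LEC libraries only (9.18 CPM), and its estimate of 1.48 ± 1.91 turned to -5.98 without that library, KO LEC replicate 2.

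**Figure D3:**
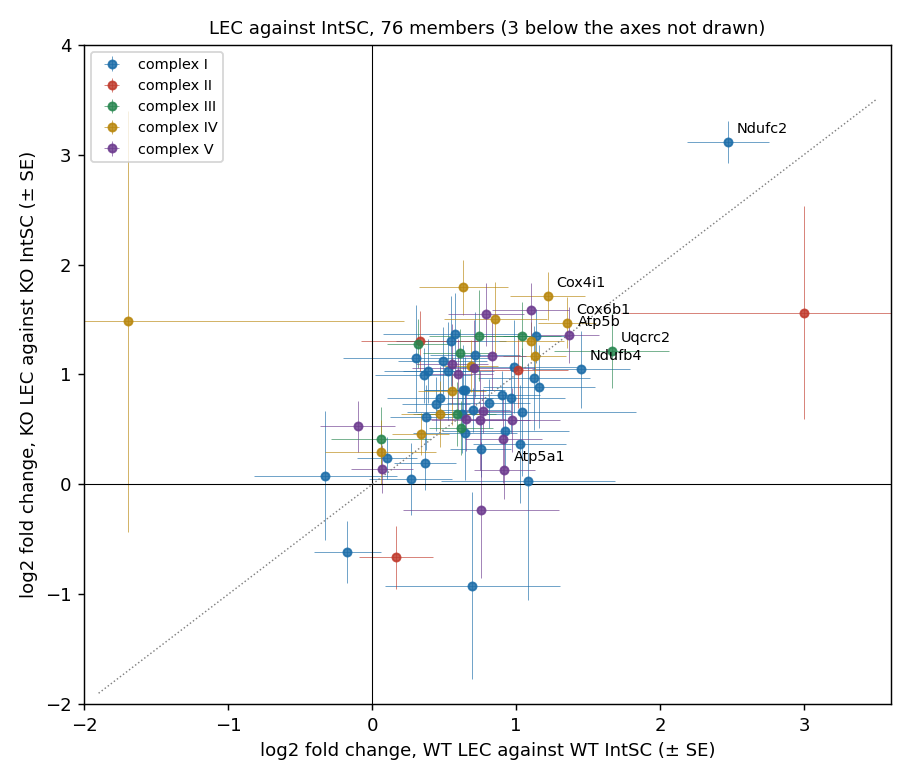
log2 fold change of LECs against IntSCs in WT (x axis) and KO libraries (y axis) for 76 members, coloured by complex, with SE bars; the dotted line marks equal change. Most points lie above 0 on both axes, Ndufc2 is at 2.47 and 3.12, and Cox4i2, Cox6b2 and Atp5s lie below the axes and are not drawn.

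In all, 19 members were called in both contrasts, each in the same direction, 17 of them higher in LECs. They made up 73.1% of the WT calls and 52.8% of the KO calls, beside 61.6% and 53.3% for all genes called in both. The members' share was near that of all genes for the KO calls. For the 26 WT calls it was higher, a difference that rests on few genes and was not tested. The shared genes were Ndufb4, Ndufb7, Ndufb8 and Ndufc2 of complex I, Sdhc, Uqcrc2 and Uqcrq, Cox4i1, Cox6a1, Cox6b1, Cox6c and Cox7a2 of complex IV, Atp5b, Atp5g2, Atp5g3, Atp5j2 and Atp5k of complex V, and the 2 lower genes Cox4i2 and Cox6b2. In the KO contrast Atp5g3 (0.67 ± 0.198, adjusted p = 0.0318) lost its call without any of KO IntSC replicates 1 to 4 or KO LEC replicates 1 and 2 (adjusted p of 0.0521 to 0.114). With the replicate number as a block, Sdhc, Uqcrc2, Cox4i2, Atp5g2 and Atp5g3 were among the shared genes that lost their WT call. Likewise Atp5g2, Atp5g3, Atp5k, Cox4i2, Cox6a1 and Cox6b2 were among those that lost their KO call. Both lists are partial, because not every shared gene was followed singly. More of the shared genes lost a call, as the counts with the block in the last section show. Sdhc also lost its WT call with RLE or upper-quartile factors and with DESeq2.

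Whether the difference between the cell types depended on genotype was tested by the interaction term, (KO - WT in LECs) - (KO - WT in IntSCs), in a fit of all 18 libraries. No member of 79 passed edgeR's adjusted threshold, against 1.70% of 14015 genes (0.278% higher and 1.42% lower), and 5 had an unadjusted p under 0.05, against 15.8% of all genes. DESeq2 called 3, Uqcr10, Cox5a and Atp5s. The share of all genes that DESeq2 called is not reported here, and the 1.70% is that of edgeR. The larger number of calls in the KO contrast is therefore not shown by edgeR as a difference between genotypes in any single gene. Uqcr10 had an interaction of 0.97 ± 0.314 (adjusted p = 0.119 with edgeR and 0.0161 with DESeq2) and Cox5a one of 1.17 ± 0.421 (0.159 and 0.0391). Atp5s had reads in 2 of 4 WT LEC libraries (7.63 and 10.3 CPM), in 4 of 6 WT IntSC libraries (up to 4.01 CPM), in all 5 KO IntSC libraries and in none of KO LECs, so its fitted term rests on zeros. Ndufc2 had the smallest p of complex I (0.66 ± 0.373, adjusted p = 0.426).

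The deletion itself was compared within each cell type. In KO against WT IntSCs, 0 of 79 members passed edgeR's adjusted threshold, against 1.47% of 12421 genes (0.853% higher and 0.620% lower); 5 had an unadjusted p under 0.05 (9.81% of all genes did), and DESeq2 and limma-voom also called 0. The members' sums were 7680 to 10036 CPM in KO and 7444 to 10580 CPM in WT. The median log2 fold change was -0.08, with 28 members above 0 and 51 below, and no member had groups without overlap, against 1.63% (higher) and 1.18% (lower) of all genes. The precision allows an approximate limit. The median SE was 0.255, and for 62 of 79 members the 95% interval (1.96 SE to each side) lay within ±1 on the log2 scale. With few libraries such an interval is narrower than that of the test itself, so this count is an upper one. Among epithelial markers, Lyz1 and Krt19 were called higher in KO IntSCs, and the summed level of that list was 64.4 to 163 CPM in KO and 0.509 to 112 CPM in WT IntSCs, while no member was called.

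The smallest p-values of each complex in IntSCs belonged to genes with modest differences. Ndufa3, a membrane arm subunit, was at 84.1, 60.7, 74.5, 139 and 95.8 CPM in KO and at 85.7, 140 and 202 CPM (lowest, median and highest) in WT IntSCs (-0.62 ± 0.260, adjusted p = 0.381). Uqcr10 was at 134 to 229 CPM against 171 to 304 CPM (-0.44 ± 0.198, adjusted p = 0.442), and Atp5k at 58.5 to 105 CPM against 61.3 to 147 CPM (-0.54 ± 0.241, adjusted p = 0.444). All 3 ranges overlapped. Sdha (-0.22 ± 0.218) and Cox6a1 (-0.26 ± 0.161) were closer to 0.

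LECs of the KO mice, the neighbours of the targeted cells, also had 0 of 75 members past edgeR's adjusted threshold, against 0.0658% of 10639 genes (0.0282% higher and 0.0376% lower), with 7 at an unadjusted p under 0.05 (7.87% of all genes) and 0 called by DESeq2 and limma-voom. The sums were 14992 to 18371 CPM in KO and 11661 to 16795 CPM in WT LECs, the median log2 fold change was 0.16, and the median SE of 0.352 left 36 of 75 members with an interval within ±1. For the other members a 2-fold difference lay within the interval. These intervals too are narrower than those of the test itself. Groups did not overlap in 4 members above and 2 below, against 4.01% and 5.80% of all genes. Cox4i2, Cox6b2, Cox7a1 and Atp5s did not pass the filter in this contrast.

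The members whose LEC groups did not overlap were Ndufa4, Uqcr10, Uqcrfs1 and Cox5a above and Ndufa3 and Sdha below. Cox5a was at 200.01, 156 and 171 CPM in KO and at 72.7, 79.5, 102 and 120 CPM in WT LECs (0.92 ± 0.324, adjusted p = 0.464). Ndufa4 was at 91.2, 111 and 179 CPM against 88.8, 23.3, 52.9 and 47.6 CPM (1.27 ± 0.477, adjusted p = 0.515), and Uqcrfs1 at 154, 200 and 113 CPM against 68.5, 64.0, 113 and 90.2 CPM (0.90 ± 0.358). In the other direction Sdha was at 63.3, 93.2 and 74.9 CPM in KO and at 112, 123, 200 and 169 CPM in WT LECs (-0.96 ± 0.356, adjusted p = 0.507). With 3 against 4 libraries such a separation was close in frequency to that over all genes.

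**Figure D4:**
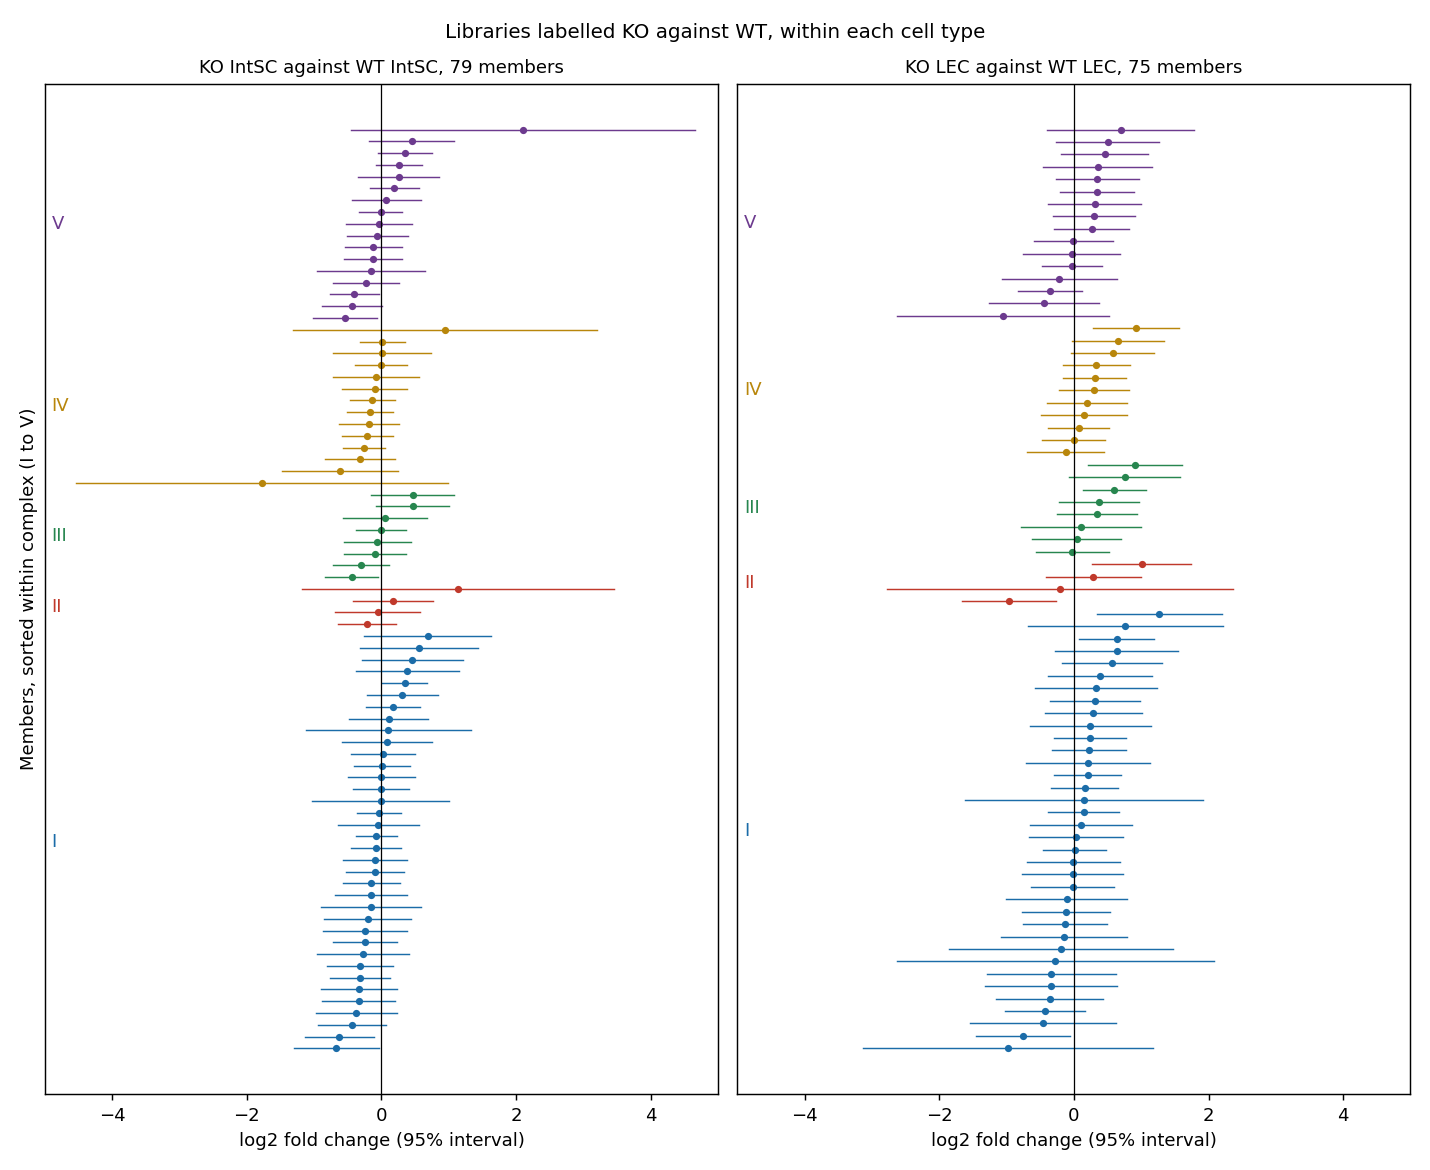
log2 fold change of KO against WT libraries with its 95% interval (x axis) for each member tested, sorted within complexes I to V (y axis), in IntSCs (left, 79 members) and LECs (right, 75 members). Medians are -0.08 and 0.16, and no member passed the adjusted threshold in either cell type.

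Other genes of the pathway give the surroundings of the subunits. In WT LECs against WT IntSCs, 4 of 9 carriers and partners of ATP synthase were called higher and none lower, with all 9 above 0 and a median of 0.94. Slc25a3, the mitochondrial phosphate carrier, was at 164 to 267 CPM in WT IntSCs and at 335, 357, 393 and 502 CPM in WT LECs (0.94 ± 0.203), and Usmg5, a small protein bound to ATP synthase, changed by 1.48 ± 0.381. Of 18 genes of the tricarboxylic acid cycle 4 were called, a share of 22.2% against 22.6% of all genes; all 4 were higher, while 5 of the 18 lay below 0 (median 0.26). Among the called were Cs, the citrate synthase (1.57 ± 0.316), and Idh3g. Of 8 uncoupling and antioxidant genes 3 were called higher (median 0.74). Ucp2, a carrier of the uncoupling protein family, was at 12.2 to 26.5 CPM in WT IntSCs and 192, 146, 208 and 259.5 CPM in WT LECs (3.48 ± 0.288, adjusted p = 3.76e-07).

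Assembly factors moved less together, with 4 called higher and 2 lower of 45 tested and a median of 0.27. The share called was 13.3%, against 22.6% of all genes. Atpaf2, which helps to assemble the F1 head, was at 3.93 to 14.2 CPM in WT IntSCs and 90.0, 105, 83.0 and 85.5 CPM in WT LECs (3.34 ± 0.401), whereas Ndufaf8, listed under its older name 1810043H04Rik, was lower (-0.90 ± 0.244). None of 14 regulators of mitochondrial biogenesis was called by edgeR (1 at an unadjusted p under 0.05), with a median of 0.40. Of 77 mitochondrial ribosomal proteins 1 was called higher, at a median of 0.47, and of 78 cytosolic ribosomal proteins 18 were called higher, with all 78 above 0 and a median of 0.50. The cytosolic share of 23.1% was near the 22.6% of all genes called in either direction, while 10.3% of all genes were called higher. Glycolysis had 3 called higher and 1 lower of 17, at a median of 0.03. Aldoa was higher (1.06 ± 0.228), and Hk2, a hexokinase, was at 28.9 to 75.3 CPM in WT IntSCs and 0.0951, 0.984, 0.187 and 0 CPM in WT LECs (-7.48 ± 0.862).

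In the KO contrast, where 25.9% of all genes were called, 3 of 9 carriers and partners were called higher with 6 above 0, 3 of 18 genes of the tricarboxylic acid cycle with 12 above 0, and 2 of 8 uncoupling and antioxidant genes with 5 above 0. Of 78 cytosolic ribosomal proteins 11 were called higher, with 57 above 0 and a median of 0.20. Glycolysis had 1 called higher and 2 lower of 18, at a median of 0.06. The regulators of biogenesis had a median of -0.13 with 1 of 14 called, lower. That gene was Gabpa, a subunit of the ETS factor named with the promoters above, at 8.61, 8.05, 9.40, 0.913 and 17.4 CPM in KO IntSCs and 0, 0.109 and 0 CPM in KO LECs (-7.40 ± 1.82, adjusted p = 0.0136). In WT LECs it stood at 5.04, 12.3, 1.03 and 0.0994 CPM, so the WT groups overlapped. Ucp2 (4.29 ± 0.420), Atpaf2 (4.17 ± 0.452) and Cs (1.19 ± 0.285) were called higher again, and Hk2 lower (-9.37 ± 0.795). Assembly factors had 6 called higher and 3 lower of 48 and the mitochondrial ribosomal proteins 8 higher of 77 (median 0.69). Ndufa4l2, a relative of Ndufa4 that was left out of the members, was at 3.503 to 20.7 CPM in WT IntSCs, 7.35 to 18.9 CPM in KO IntSCs, 0 to 15.3 CPM in WT LECs and 0 to 16.0 CPM in KO LECs, with overlap between all groups.

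**Figure D5:**
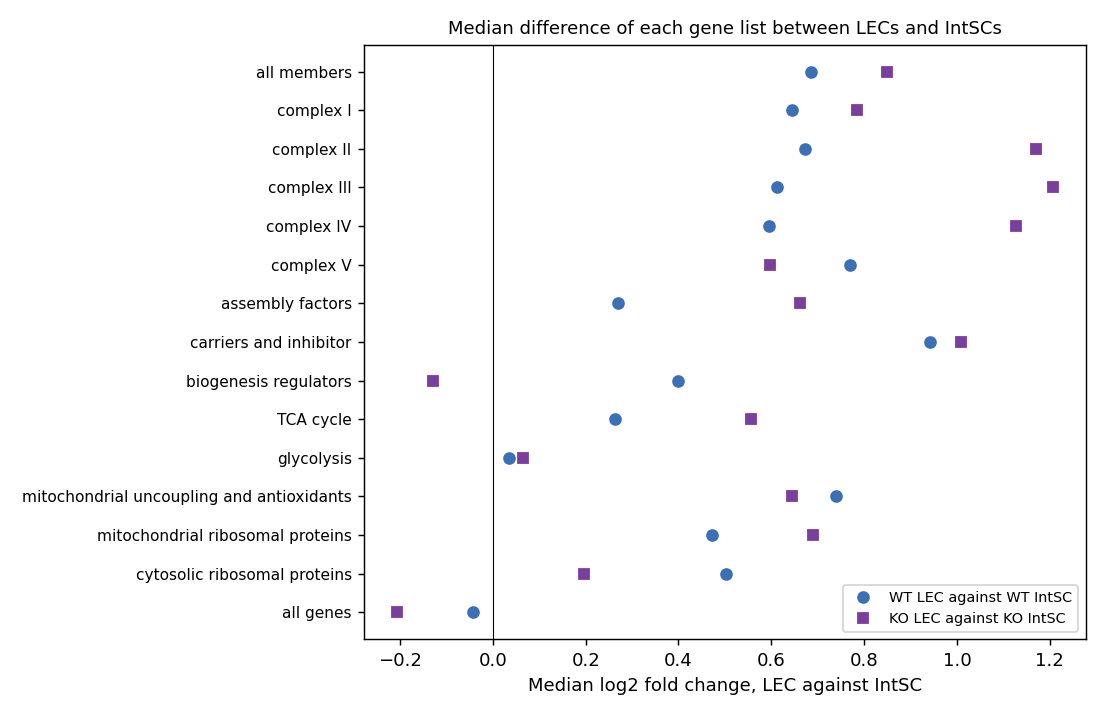
Median log2 fold change of LECs against IntSCs (x axis) for the members, each complex, the other lists and all genes tested (y axis), in WT (circles) and KO libraries (squares). The members lie at 0.69 and 0.85, and all genes at -0.04 and -0.21.

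Counting could blur a few of these genes. In RefSeq, Atp5a1 overlaps Haus1, Ndufa2 overlaps Tmco6, Uqcrc2 overlaps Pdzd9, Cox7a2 overlaps Tmem30a, Cox4i2 overlaps Bcl2l1, and a pseudogene lies within Uqcrh. Many of these genes also have processed pseudogenes. How the authors' counting handled strand and reads with several matches is not given in the sources used here, so the levels of these genes are uncertain to that extent.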

How the data were processed

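RNA of 18 sorted cell libraries was sequenced from transcript 3′ ends. The authors deposited raw counts, 1 table of whole-number counts per gene symbol and library (23282 rows, 23238 symbols; the 35 symbols on more than 1 row were summed). The study's methods name TopHat and Cufflinks, and the submitters' processing notes list Bowtie2, edgeR and mm10; the program and annotation behind the counts are not given in the sources used here. Groups came from the labels. Levels are CPM with TMM factors over all 18 libraries; each fit computed its own factors from the libraries compared, so levels and fold changes are on slightly different scales. Tests used edgeR 4.0.16 (R 4.3.3: filterByExpr, TMM, robust glmQLFit, glmQLFTest), with Benjamini-Hochberg adjustment over all genes and a threshold of 0.05; the interaction used all 4 groups. Alternatives used DESeq2 1.42.0 and limma 3.58.1. The steps were tested on simulated data in which well-counted genes varied less between libraries than here. The fits had a common coefficient of variation between libraries of 0.679 to 1.09, so the simulation does not show how the steps perform at that spread. SE is the size of the log2 fold change over the root of F. Limits from a count of 0 use 3 counts and cover counting error only. Same-numbered libraries of 2 groups were checked for pairing, and none of their correlations was above 0.1. That limit was a choice and cannot exclude pairing. The main fits used no block, and a block by replicate number was an alternative that gave fewer calls. Promoter windows and positions came from RefSeq (GRCm38.p6, the build of mm10), with all 83 members matched by symbol or synonym. Members, lists and classes were chosen with earlier results of these data known. Named genes were, in each comparison, up to 10 members past the threshold by smallest p and the member of smallest p in each complex, the member of highest mean CPM in each complex, the isoforms of complex IV and the c-ring genes, the members in no fit, and up to 3 called genes of each other list. Single values of some genes that this rule takes are not reported here.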

Additional observations from a re-analysis of the deposited data

Results flagged for a closer look

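The values of 41 genes and sums were checked within each group of 4 to 6 libraries for a highest or lowest library that stood far from the rest (Dixon's test at the 95% level). Of 112 groups of values 6 were flagged, where chance gives about 5.6. In WT LECs, Cox6b1 was lowest in replicate 2 at 391.6 CPM (the others at 572 to 603 CPM), Ndufa3 was highest in replicate 1 at 242 CPM (137 to 148 CPM), and Cox7a1 was highest in replicate 1 at 4.28 CPM with the others at 0. In WT IntSCs, Ndufb4 was highest in replicate 3 at 79.2 CPM (22.1 to 40.7 CPM). In KO IntSCs, Sdhb was highest in replicate 4 at 91.7 CPM (52.2 to 63.6 CPM), and Cox8b was highest in replicate 5 at 1.29 CPM with the others at 0. The KO LEC group, with 3 libraries, was not checked.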

How the results depend on the processing

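Over the scaling, filter, tool and left-out library alternatives, the members' median log2 fold change stayed between 0.57 and 0.77 for WT LECs against WT IntSCs and between 0.77 and 0.95 for the KO contrast. Upper-quartile factors moved the median of all genes in the WT contrast to -0.15, and unscaled library totals moved it in the KO contrast to -0.10. Counts of calls without the replicate block were 20 to 32 (WT) and 30 to 40 (KO) with all libraries, and leaving out 1 library gave 16 to 28 and 21 to 36. With the replicate number as a block, 13 members were called in the WT contrast and 8 in the KO contrast, all among those called without it. The share of all genes called under each alternative is not reported here. The counts of members under alternatives, here and above, therefore do not show how the members compare with all genes. The fewer residual degrees of freedom lie in the construction of that fit. No label says whether the numbers pair libraries. Correlations of same-numbered libraries were -0.0612 to 0.0802. In the WT contrast 7 of 8 libraries correlated best with their own number, and in the KO contrast 2 of 6. Same-numbered libraries of the WT contrast had a mean correlation of 0.036, against -0.00719 for other pairs, so pairing there was not excluded. KO against WT gave 0 calls in either cell type under every alternative, and the interaction gave 0 except with DESeq2, where 3 were called; the cause was not tested. Cox7a1 in the KO contrast turned to -0.80 with limma-voom, -1.999 with the replicate block and -5.98 without KO LEC replicate 2, and reached 2.06 without another library; Atp5g1 there turned to -0.19 without KO LEC replicate 2 and reached 0.72 without replicate 1. Depth limits Cox4i2, Cox7a1, Cox8b and Atp5s, whose values rest on few reads a library.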
